A study of Mus musculus with 28 samples.

Results

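The cells described here are fibroblasts of the mouse arteriovenous fistula (AVF) that carried *Thbs4*, *Cilp*, *Comp*, and *C1qtnf3*. They were chosen from 3 single-cell libraries by the share of each cell's unique molecular identifiers (UMIs, counts of single RNA molecules). A barcode needed 200 to 6000 genes and at most 10% mitochondrial UMIs, at least 1.5% of UMIs from *Col1a1*, *Col1a2*, *Col3a1*, and *Dcn*, under 1% from 4 smooth muscle genes (*Acta2*, *Tagln*, *Myh11*, *Myl9*), and under 0.5% from 3 macrophage genes (*Lyz2*, *C1qa*, *C1qb*), which defined a gated fibroblast, and at least 0.1% from the 4 markers together, which made it a member. There were 455 members among 4395 gated fibroblasts and 16893 barcodes kept. The marker levels chose the cells, so these levels and every comparison of members with other fibroblasts of the same library are descriptions without a test.

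All mice were male and female C57BL/6 from The Jackson Laboratory. Each first lost most of its kidney mass in a 5/6 nephrectomy and weeks later received an AVF, in which a carotid artery emptied through its side wall into a divided jugular vein. The jugular vein of the other side (contralateral vein) was the control, so that controls carried the nephrectomy too. Each single-cell library was 1 pool of 10 vessels of both sexes (contralateral veins, early AVFs, late AVFs), with fewer mice than vessels, so veins and fistulas shared animals. Bulk libraries came from single vessels of other mice: 7 contralateral veins, 8 early AVFs (day 3), 5 mid AVFs (day 10), and 5 late AVFs (day 21). These days are nominal ones from the sample names. The study gives a spread of harvest days in each group, widest relative to its mean in the early group, and took its single-cell AVFs on somewhat later days than its bulk AVFs. With 1 library per condition, no single-cell difference had a replicate check, and the intervals given are exact 95% intervals that cover counting error only.

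Fibroblasts build the collagen and elastic matrix of the vessel's outer layers, and in injured vessels some of them take on a program of matrix secretion. *Thbs4* and *Comp* (thrombospondin 5) encode pentameric matricellular proteins of tendon and cartilage that bind collagens, *Cilp* encodes a secreted matrix protein first known from the middle layer of cartilage, and *C1qtnf3* encodes a secreted protein with a collagen stalk and a C1q-like head. In tendon, such proteins lie along collagen fibrils that bear load.

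The 4 genes lie on different chromosomes of GRCm38: *Thbs4* (ENSMUSG00000021702) at chr13:92751590-92794818 on the minus strand, *Cilp* (ENSMUSG00000042254) at chr9:65265180-65280605, *Comp* (ENSMUSG00000031849) at chr8:70373558-70382066, and *C1qtnf3* (ENSMUSG00000058914) at chr15:10952332-10980150, the last 3 on the plus strand. Because all 4 markers were higher in every late AVF than in any contralateral vein, the promoters in the RefSeq table of GRCm38.p6 are shown, each with 250 bases before and 50 after the start of the gene and the strand of the gene, at chr13:92794769-92795068, chr9:65264930-65265229, and chr15:10952082-10952381 in this order. Of the 4 markers, 3 matched the table and *Comp* is named only. Capitals mark matches, on either strand, to a TEAD motif (GGAATG), an AP-1 motif (TGANTCA), or a TATA box (TATAAA).
Thbs4: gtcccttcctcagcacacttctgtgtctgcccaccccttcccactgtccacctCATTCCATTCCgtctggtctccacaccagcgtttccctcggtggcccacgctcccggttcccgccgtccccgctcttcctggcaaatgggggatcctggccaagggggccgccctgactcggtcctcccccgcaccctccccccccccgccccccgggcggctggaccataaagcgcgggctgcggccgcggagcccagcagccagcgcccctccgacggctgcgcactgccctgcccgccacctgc
Cilp: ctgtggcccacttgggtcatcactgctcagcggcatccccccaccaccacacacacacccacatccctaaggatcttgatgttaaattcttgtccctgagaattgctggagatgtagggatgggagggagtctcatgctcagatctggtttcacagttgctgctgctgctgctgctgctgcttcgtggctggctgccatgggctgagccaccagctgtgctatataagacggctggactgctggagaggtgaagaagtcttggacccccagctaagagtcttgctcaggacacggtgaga
C1qtnf3: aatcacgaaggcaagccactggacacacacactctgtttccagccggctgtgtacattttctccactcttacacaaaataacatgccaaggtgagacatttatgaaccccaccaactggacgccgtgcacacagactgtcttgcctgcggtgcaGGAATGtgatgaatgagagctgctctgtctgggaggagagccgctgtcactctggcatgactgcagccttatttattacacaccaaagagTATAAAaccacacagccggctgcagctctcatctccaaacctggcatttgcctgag
The *Thbs4* promoter held 2 overlapping reverse-strand TEAD matches, beginning 197 and 192 bases before the start, and the *C1qtnf3* promoter held 1 TEAD match 96 bases and 1 TATA match 6 bases before it. No letters of the 3 motifs were found in the *Cilp* window. Of 32851 promoters in the table, 14.7% held the TEAD letters, 7.81% those of AP-1, and 13.6% those of the TATA box. A match describes the letters in this window and nothing more.

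Members made up 1.06% of gated fibroblasts in contralateral veins (18 of 1697, interval 0.630 to 1.67%), 12.2% in early AVFs (76 of 623, 9.73 to 15.0%), and 17.4% in late AVFs (361 of 2075, 15.8 to 19.1%). Among the 1225, 460, and 1996 gated fibroblasts deep enough to be thinned to 2000 UMIs, the shares were 1.39%, 16.7%, and 20.6%. This setting changed both the depth and the set of cells. Among all barcodes kept the shares were 0.285% of 6319, 1.60% of 4753, and 6.20% of 5821. Of all members, 79.3% came from late AVFs, and early AVFs also held them. In late AVFs 54 members had UMIs of 1 of the 4 markers, 92 of 2, 109 of 3, and 106 of all 4. In contralateral veins 13 of the 18 members rested on a single marker, and with at least 2 of the 4 markers required the shares were 0.295%, 8.83%, and 14.8%. Without *Cilp* as a marker they were 0.530%, 8.35%, and 11.7%. The order of the 3 libraries was the same in each case.

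**Figure D1:**
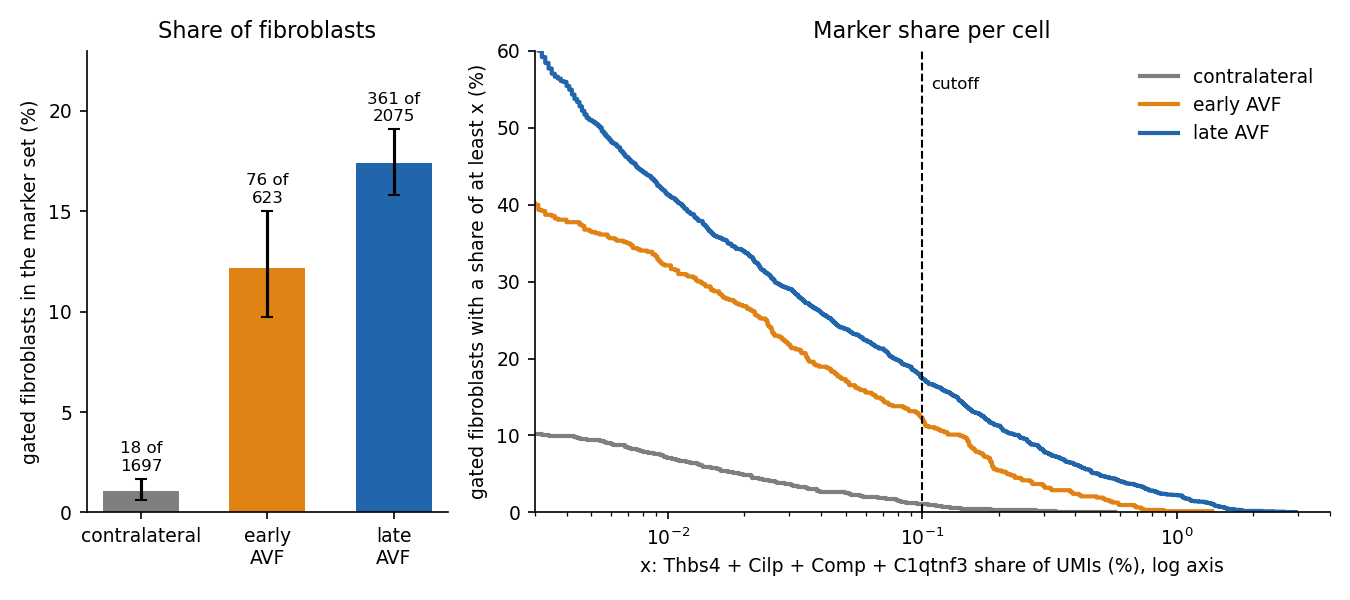
Share of gated fibroblasts that carried the marker set, in percent with exact 95% binomial intervals (left: contralateral veins 1.06%, early AVFs 12.2%, late AVFs 17.4%), and the percent of gated fibroblasts at or above each marker share of UMIs, on a log axis (right). Each library is 1 pool of 10 vessels.

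The marker share was a range and not a separate class. In late AVFs 134 gated fibroblasts lay just under the threshold, with a marker share of 0.05 to 0.1%, and 76 lay just above it, at 0.1 to 0.15%. The highest share outside was 0.0999% and the lowest inside 0.101%. The median late member gave 0.285% of its UMIs to the 4 markers and the highest gave 2.94%. Most late members did not rest on a few molecules, since 339 had at least 10 marker UMIs and 9 had 1. Among the other fibroblasts, 90.8% in contralateral veins, 63.3% in early AVFs, and 44.1% in late AVFs had no marker UMI, at the depths given next.

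Depth differed between libraries and little between members and other cells of late AVFs. The median member held 9591.5 UMIs in contralateral veins, 27400 in early AVFs, and 24200 in late AVFs, against 4776, 18446, and 25006 in other gated fibroblasts. In cells thinned to 2000 UMIs, *Thbs4* was found in 45.1% of late members and 2.30% of other late fibroblasts, *Cilp* in 72.4% and 6.54%, *Comp* in 40.1% and 6.66%, and *C1qtnf3* in 41.0% and 4.30%. Too shallow to enter were 79 late gated fibroblasts, 17 of them members. Libraries shared 19 barcodes (contralateral and early), 14 (contralateral and late), and 16 (early and late), and 1 member had such a barcode. Scrublet marked 2.06% of late barcodes as doublets, 7 late members among them, but at most 0.0421% in the other libraries, so doublets may remain there.

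*Thbs4* was the marker held most tightly by these cells. In late AVFs 94.7% of its 14145 UMIs lay in members, and 27 members held 50% of those. Its level was 1552 CPM (UMIs scaled to 1000000, interval 1526 to 1579) over the summed UMIs of late members. It was 12.4 CPM over other late fibroblasts. A UMI was found in 58.2% of members, 13.1% of other fibroblasts, and 3.70% of late macrophages, given for comparison. The study lists *Thbs4* among genes raised in its inflammatory macrophages, so the macrophage share is not taken as background alone. *Cilp* was found in the most members, 84.5%, with 28.3% of other fibroblasts and 5.29% of macrophages, at 1636 against 46.1 CPM, and 86.3% of its UMIs lay in members. *C1qtnf3* stood at 776 against 24.5 CPM with 84.2% of its UMIs in members. *Comp* was the least confined, with 816 against 43.8 CPM, 66.6% of its late UMIs in members, and 15.6% in cells outside the fibroblast gate. In contralateral veins 82.8% of the 268 *Comp* UMIs lay outside the gate. The median depth of macrophages was 16009 UMIs in late AVFs.

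To look at each marker in cells that it did not choose, members were chosen again by the other 3 markers alone. In late AVFs *Thbs4* was then 34.7-fold higher in 335 chosen cells than in the 1740 remaining fibroblasts (1561 against 35.3 CPM, with 10 CPM added to both). The same ratio was 17.2 for *C1qtnf3* (763 against 34.8 CPM), 11.5 for *Cilp* (1685 against 138 CPM), and 2.31 for *Comp* (352 against 146 CPM). In early AVFs the ratios were 8.95 for *Thbs4*, 7.79 for *Cilp*, 5.37 for *C1qtnf3*, and 1.94 for *Comp*. *Comp* thus had the lowest ratio in both AVF libraries. In contralateral veins, where 9 to 16 cells were chosen, it had the highest (7.20, against 4.69 for *Cilp*, 1.73 for *C1qtnf3*, and 0.507 for *Thbs4*, of which the 13 chosen cells held 0 UMIs).

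Among the 361 late members, log levels of *Thbs4* and *C1qtnf3* were correlated (Pearson's r = 0.53 over 361 cells), as were those of *Thbs4* and *Cilp* (0.47) and of *Cilp* and *C1qtnf3* (0.37). *Comp* ran against *Cilp* (-0.55), *Thbs4* (-0.23), and *C1qtnf3* (-0.16). These cells share 1 library and each had to reach 0.1% of UMIs over the 4 markers together, so the values are a description. By the marker with the most UMIs in a cell, counted at the 3′ end of the transcript, 162 late members (44.9%) were led by *Cilp*, 89 (24.7%) by *Comp*, 72 (19.9%) by *Thbs4*, and 33 (9.14%) by *C1qtnf3*, with 5 ties. Among early members *C1qtnf3* led 33 of 76 (43.4%), *Cilp* 20, *Thbs4* 12, and *Comp* 7.

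**Figure D2:**
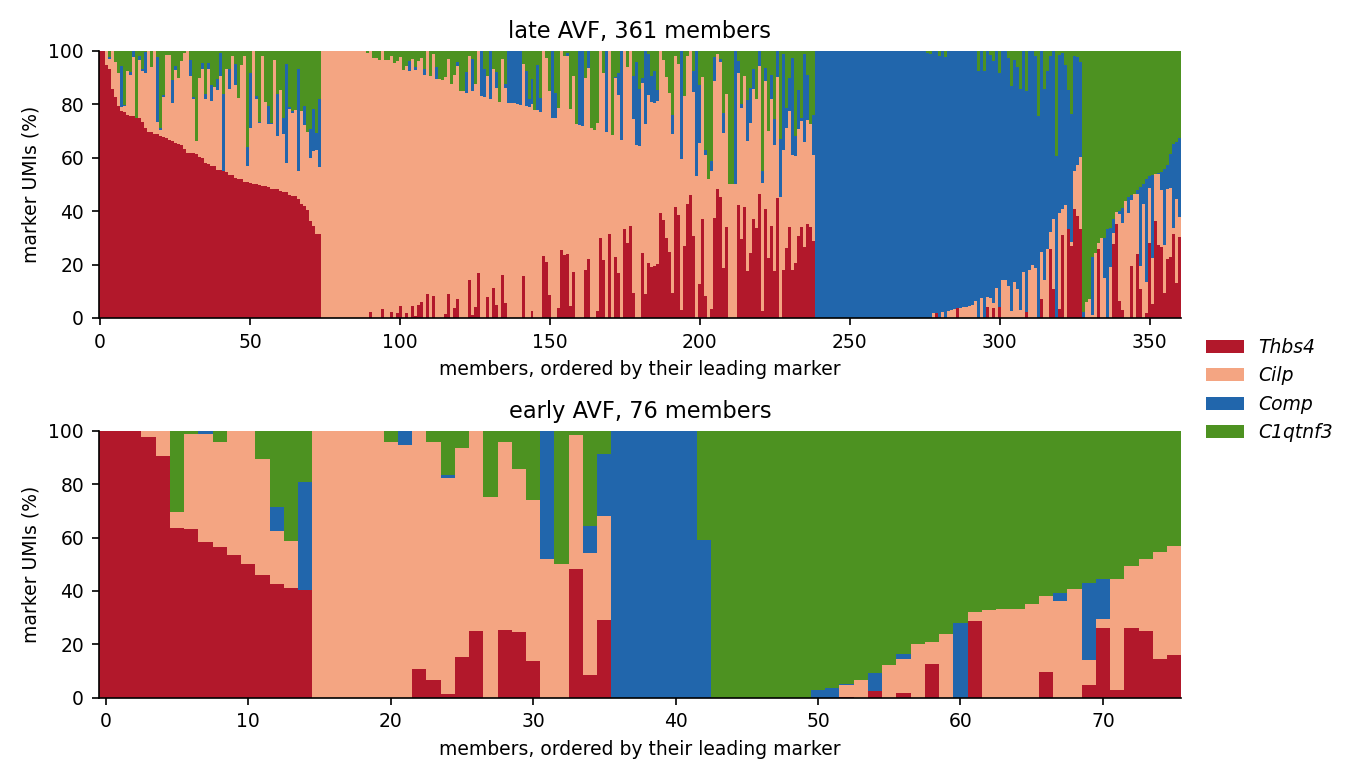
Make-up of the marker UMIs of each late member (top, 361 cells) and early member (bottom, 76 cells), in percent of the 4 markers' UMIs, with 1 column per cell ordered by its leading marker (ties go to the first marker named). *Cilp* leads 44.9% of late members and *C1qtnf3* leads 43.4% of early members.

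The fibroblast label was checked against 8 defining fibroblast genes. *Pdgfra*, the receptor that marks most fibroblasts, was found in 88.1% of late members, 91.4% of other late fibroblasts, and 6.35% of late macrophages. *Lum* was found in 97.2%, 97.7%, and 42.9% of the same cells, and the summed level of the list was 12660 CPM in members and 17018 in other late fibroblasts, the difference lying mainly in *Gsn* (3263 against 6738 CPM). In early AVFs *Pdgfra* was found in 72.4% of members, 63.4% of other fibroblasts, and 4.39% of macrophages, while its level (143 against 301 CPM) and that of *Serping1* (950.1 against 2027 CPM) were at least 2-fold lower in members. Marker lists of other cells were summed in late members and in other late fibroblasts. Endothelial genes summed to 11.8 against 11.9 CPM with *Vwf* at 0 in members, macrophage genes to 70.6 against 105 CPM, and Schwann cell genes to 29.4 against 55.2 CPM. The lists of T cells, B cells, adipocytes, skeletal muscle, mesothelium, and erythroid cells each stayed under 20 CPM in both. The 4 lists above 100 CPM in members were all higher there. Smooth muscle and pericyte genes summed to 226 against 139 CPM, and neutrophil genes to 112 against 54.7 CPM (589 against 229 CPM in early AVFs). Tendon genes summed to 684 against 262 CPM, with *Tnmd* (tenomodulin), *Fmod* (fibromodulin), and *Ecrg4* at least 2-fold higher and the tendon transcription factor *Scx*, named after its value was seen, at 19.0 against 1.40 CPM. Cartilage genes summed to 646 against 129 CPM. Cells with cartilage genes were few: 4 late members held at least 3 of 6 cartilage genes, and they carried 99.9% of the *Col2a1* UMIs and 15.7% of the *Comp* UMIs of late members. Another 6 such cells lay among other late fibroblasts, and 30 late members (8.31%) held at least 2 of 6 tendon genes. Whether tissue next to the vessel was taken with these pools was not tested.

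Beyond the markers, genes of collagens, proteoglycans, and other matrix proteins were among those with the largest ratios of late members over other late fibroblasts. At least 2-fold higher were 63 of 2662 genes (2.37%), the 4 markers included, and at least 2-fold lower 67 of 2538 (2.64%). This was among genes with 50 CPM and a UMI in 10% of cells on the higher side. Both levels had 10 CPM added. The median ratio over 2791 genes was 1.05. With 50 CPM added, 36 genes were higher. Leaving out members with cartilage genes, tendon genes, or either left the count of higher genes between 52 and 63. The genes were not all the same: 48 of the 63, and 21 of the 25 with the largest ratios, were among the 52 left without members with tendon genes, and 45 and 19 were among the 56 found in cells thinned to 2000 UMIs.

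The 25 genes with the largest ratios included structural collagens, although most collagens of the fixed lists stayed under 2-fold. At least 2-fold higher were 2 of 7 fibrillar and fibril-associated collagens (median ratio 1.47) and 2 of 9 network and microfibril collagens (median 1.36), with 0 lower. *Col8a1* and *Col8a2*, the chains of the short-chain network collagen VIII, stood at 565 against 58.8 CPM and 66.5 against 3.15 CPM. *Col11a1*, a chain that nucleates fibrils in cartilage, stood at 74.3 against 4.57 CPM, and *Col12a1*, which decorates fibrils in tendon, at 308 against 65.6 CPM. The small leucine-rich proteoglycans that regulate fibril growth were led by *Aspn* (asporin, 1987 against 388 CPM) and *Fmod* (324 against 53.9 CPM), with *Ogn* (osteoglycin, 1390 against 568 CPM) also over 2-fold. *Tnmd*, a membrane protein of mature tendon cells, stood at 56.3 against 2.73 CPM. Matrix-associated and matricellular genes in the group were *Tnc* (tenascin C, 229 against 38.0 CPM), *Mgp* (the calcification inhibitor matrix Gla protein, 8590 against 2790 CPM), *Ltbp2* (112 against 30.6 CPM), and *Cthrc1* (344 against 82.9 CPM).

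The rest of this group held secreted, membrane, and intracellular proteins of several kinds. The largest ratio, 8.43, was that of *Angptl1*, an angiopoietin-like secreted protein, at 1036 against 114 CPM. *Ccn2* (connective tissue growth factor) stood at 1062 against 280 CPM, *Ccn4* at 138 against 41.8 CPM, and *Tgfb3*, a TGF-β ligand, at 159 against 46.0 CPM. *Piezo2*, a stretch-gated cation channel, stood at 98.7 against 11.7 CPM, *Rgs4*, a brake on G protein signaling, at 114 against 8.65 CPM, and *Lrrc15*, a membrane protein of activated fibroblasts, had a ratio of 3.81. The remaining 7 were *Fibin* (261 against 34.3 CPM), *Fxyd6*, a regulator of the sodium pump (242 against 42.2 CPM), *Mest*, *Cpxm2*, the potassium channel gene *Kcnma1* (54.7 against 9.72 CPM), *Fhl2*, and *Ndnf*, with ratios of 2.88 to 6.11. In early AVFs 18 of these 25 genes were also at least 2-fold higher in members, where 1.81% of genes were, and the 7 that were not included *Col12a1*, *Cthrc1*, *Lrrc15*, *Ccn2*, and *Mgp*. In contralateral veins, with 18 members, 8 of the 25 were, against 8.29% of genes. The counts of the 25 needed no minimum level or share of cells in these libraries, unlike the shares over all genes.

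The 15 genes most reduced in late members included secreted inflammatory genes. The acute-phase gene *Saa3* stood at 96.5 CPM against 690 in other late fibroblasts, *Hp* (haptoglobin) at 192 against 675, and the chemokines *Ccl11* at 99.7 against 481, *Cxcl12* at 222 against 994, and *Cxcl5* at 48.8 against 238. *Efemp1*, an extracellular glycoprotein of the fibulin family, stood at 71.2 against 415 CPM and *Ugdh*, which makes the precursor of hyaluronan, at 234 against 763. In early AVFs 8 of the 15 were at least 2-fold lower in members, where 2.69% of genes were. In contralateral veins 3 were, against 5.68%. The counts of the 15 also went by the ratio alone, without the minimum used for the shares.

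Lists of related genes placed these single genes in their groups. Over all genes, 2.37% were higher and 2.64% lower in late members. These shares were 1.81% and 2.69% in early members, and 8.29% and 5.68% in members of contralateral veins. The higher shares count markers that chose the cells: 4 in late, 4 in early, and 3 in contralateral members. Of 12 inflammatory fibroblast genes 7 were at least 2-fold lower in late members and 0 higher, with a median ratio of 0.381. These were *Cxcl5*, *Ccl11*, *Cxcl12*, *Saa3*, *Il6* (296 against 845 CPM), the hyaluronan-binding *Tnfaip6* (1087 against 3138 CPM), and complement *C3* (2313 against 5755 CPM). In early members 6 of the 12 were lower, with a median of 0.484. Of 9 genes of *Pi16* adventitial fibroblasts 5 were lower in late members (*Dpp4*, *Cd55*, *Ly6c1*, *Sema3c*, *Cd248*; median 0.436), while *Pi16* itself stood at 958 against 1147 CPM. In early members 0 of 7 were past 2-fold (median 0.699), and in contralateral veins, with 18 members, 2 of 9 were higher (*Pi16*, *Ackr3*) and 1 lower (median 1.34).

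On the other side, 4 of 8 activated fibroblast genes were at least 2-fold higher (*Postn* at 1938 against 923 CPM, *Tnc*, *Cthrc1*, *Lrrc15*; median 1.96). So were 3 of 7 small leucine-rich proteoglycans (median 1.93) and 3 of 13 elastic fiber genes: *Eln* (elastin, 2579 against 1076 CPM), *Mfap4* (1098 against 466 CPM), and *Ltbp2*. Among thrombospondins *Thbs2* was higher (453 against 187 CPM), while *Thbs1* and *Thbs3* had ratios of 1.56 and 1.06. Of 7 crosslinking enzymes only *Lox* (lysyl oxidase, 578 against 242 CPM) was past 2-fold, and of 9 proteases and inhibitors *Mmp3* (405 against 832 CPM) and *Adamts5* were lower. Of 5 secreted Wnt modulators none was past 2-fold in either direction. Proliferation genes were near 0, at 5.45 CPM summed over 6 genes in late members and 8.70 in other late fibroblasts.

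Members led by different markers differed from one another. The genes named in this paragraph and the next were chosen after their values were seen. *Thbs4*-led members had more *Lrrc15* than the remaining late members (144 against 22.6 CPM), more *Tnmd* (157 against 26.9 CPM), *Scx* (50.2 against 9.88 CPM), *Angptl1* (1837 against 802 CPM), and *Postn* (3466 against 1492 CPM). *C1qtnf3*-led members had more *Cthrc1* (898 against 281 CPM), *Col11a1* (213 against 58.6 CPM), *Ecrg4* (441 against 120 CPM), and *Scx* (60.3 against 14.3 CPM). *Cilp*-led members had less *Fmod* (123 against 491 CPM) and *Col11a1* (12.7 against 126 CPM), and more *Has1*, a hyaluronan synthase (976 against 392 CPM), and *Sparcl1* (186 against 67.2 CPM).

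*Comp*-led members stood apart from the rest on many genes of the leading group. They had less *Aspn* (630 against 2361 CPM), *Col12a1* (91.8 against 368 CPM), *Angptl1* (432 against 1202 CPM), *Lrrc15* (1.61 against 63.4 CPM), and *Mest* (10.7 against 103 CPM). They had more *Frzb*, a secreted Wnt antagonist of cartilage (191 against 6.35 CPM), *Smoc1* (148 against 3.69 CPM), and *Mgp* (18819 against 5775 CPM). All 4 members with cartilage genes and all 10 late members with over 500 CPM of the pericyte gene *Rgs5* were led by *Comp*. Without these cells 76 of the 89 *Comp*-led members were left, with *Frzb* at 69.8 CPM, *Smoc1* at 67.1, and *Mgp* at 10061, while *Aspn* stood at 760 and *Angptl1* at 531. *Serpine2* and *Col18a1*, 5.07-fold and 4.32-fold higher with all 89 cells, had ratios of 1.25 and 1.21 without them.

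Late and early members were also compared with each other, 1 library against 1 library. Of 3052 genes 144 (4.72%) were at least 2-fold higher in late members and 72 (2.36%) at least 2-fold lower. Of 9 activated fibroblast genes 6 were at least 2-fold higher in early members (*Postn*, *Cthrc1*, *Tnc*, *Lrrc15*, *Ddah1*, *Vcan*) and 0 in late members, and *Fap*, *Runx1*, and *Fn1* were within 2-fold. Of 9 resting venous fibroblast genes 8 were at least 2-fold higher in late members and 0 in early members, and the list summed to 1188 CPM in early and 2823 in late members and to 1819 and 3327 in other fibroblasts. *Postn* stood at 6696 CPM in early and 1938 in late members, *Cthrc1* at 1734 and 344, and *Tnc* at 983 and 229. The other fibroblasts of the same libraries differed the same way (*Postn* 3100 and 923 CPM, *Cthrc1* 866 and 82.9, *Tnc* 279 and 38.0). *Mest*, an imprinted gene, stood at 734 and 83.0 CPM in members and at 44.9 and 15.2 in other fibroblasts. *Comp* stood at 209 CPM in early and 816 in late members, *Cpxm2*, a carboxypeptidase-like protein, at 77.3 and 368, and *Gsn* at 537 and 3263. Other fibroblasts differed the same way (*Comp* 18.0 and 43.8 CPM, *Cpxm2* 23.7 and 102, *Gsn* 826 and 6738). *C1qtnf3* ran the other way, at 1317 CPM in early and 776 in late members. *Xist*, the RNA of the inactive X chromosome in female cells, was named after its values were seen. It stood at 158 CPM in early and 624 in late members and at 243 and 584 in other fibroblasts. Of 9 immediate early and heat shock genes 4 were at least 2-fold higher in late members (*Fosb*, *Egr1*, *Hspa1b*, *Dnajb1*), and the list summed to 20515 CPM in early and 40428 in late members and to 20709 and 39155 in other fibroblasts. Erythroid genes summed to 207 and 2.78 CPM in members and to 1360 and 2.49 in other fibroblasts. The part of these gaps between the pools in the late to early differences was not tested.

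In bulk libraries each vessel was a replicate, and the members' genes were tested among all 12673 genes past a filter on low counts. Levels are CPM per vessel, and differences are log2 fold changes (LFC) from edgeR's quasi-likelihood test with Benjamini–Hochberg adjustment over all genes. A gene was called at an adjusted *p* under 0.01 if it also changed by 1 or more on the log2 scale. By these rules 2.49% of genes were higher and 2.85% lower in late AVFs than in contralateral veins, and 6.25% lay above all contralateral veins in each late AVF (7.32% in each mid AVF). Fewer cells of a type and less RNA per cell cannot be told apart in bulk. The markers were proposed with bulk results of these vessels known, so their bulk values are no independent support.

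*Thbs4* was 0 to 14.6 CPM in contralateral veins (median 2.14) and 12.9 to 229 CPM in early AVFs (median 39.3). In mid AVFs 12, 13, 14, 15, and 9 it was 198, 126, 243, 197, and 119 CPM, and in late AVFs 16, 17, 19, 23, and 24 it was 170, 125, 335, 211, and 185 CPM. All mid and late AVFs lay above all contralateral veins, and 2 early AVFs, 1 and 10, reached into the late range. These were also the early AVFs with the most RNA of skeletal muscle genes, at 3474 and 4018 CPM against 5.13 to 430 in the other 6, and its part in their values was not tested. Set against contralateral veins, the LFC was 4.11 ± 0.82 (SE) for early (adjusted *p* = 0.000596), 5.42 ± 0.91 for mid (adjusted *p* = 0.000175), and 5.63 ± 0.91 for late AVFs (adjusted *p* = 0.000163).

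*Comp* was low in early AVFs. It was 0 to 8.39 CPM in contralateral veins (median 3.80) and 0.407 to 16.4 CPM in early AVFs (median 6.23). In mid AVFs, in the same order, it was 12.6, 48.0, 19.8, 25.4, and 64.2 CPM, and in late AVFs 43.5, 105, 121, 147, and 139 CPM. The lowest late AVF exceeded the highest early AVF. The LFC of late AVFs was 4.90 ± 1.12 (SE) relative to contralateral veins (adjusted *p* = 0.00439) and 4.17 ± 1.03 relative to early AVFs (adjusted *p* = 0.0117, not called), that of mid AVFs against contralateral veins was 3.20 (adjusted *p* = 0.0443), and that of early AVFs 0.73 (adjusted *p* = 0.619). Without late AVF 19 or late AVF 23 the adjusted *p* against contralateral veins was 0.0103 or 0.0105, just past the threshold. The difference from early AVFs was called in 5 of 25 fits with single vessels left out (contralateral veins 28, 31, 35, and 632, early AVF 10), with an adjusted *p* of 0.00589 to 0.0316 over all 25. DESeq2 called it, and also that of mid AVFs against contralateral veins.

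*Cilp* was 0 to 84.8 CPM in contralateral veins (median 58.2) and 9.44 to 388 CPM in early AVFs (median 73.6). It was 468, 468, 457, 585, and 242 CPM in the mid AVFs and 490, 363, 491, 371, and 281 CPM in the late AVFs. All mid and late AVFs lay above all contralateral veins, yet neither difference was called: the LFC was 3.29 ± 0.85 (SE) for mid (adjusted *p* = 0.0106) and 3.14 ± 0.85 for late AVFs (adjusted *p* = 0.0153). With single vessels left out, the adjusted *p* of late AVFs ran from 0.00444 to 0.0342 and passed the threshold in 2 of 25 fits. That of mid AVFs ran from 0.00275 to 0.0255 and passed in 4 of 25 fits.

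*C1qtnf3* was 0.272 to 100.3 CPM in contralateral veins (median 5.76) and 0.725 to 817 CPM in early AVFs (median 113), the widest spread of the 4 markers. It was 402, 646, 892, 857, and 643 CPM in the mid AVFs and 233, 365, 766, 388, and 369 CPM in the late AVFs. Again all mid and late AVFs lay above all contralateral veins and no call was made, the LFC being 4.60 ± 1.30 (SE, adjusted *p* = 0.0195) and 3.90 ± 1.27 (adjusted *p* = 0.0447). Of the 4 markers, 2 were called in late AVFs, 1 in mid AVFs, and 1 in early AVFs, where 2.49%, 2.74%, and 6.17% of genes were called higher.

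**Figure D3:**
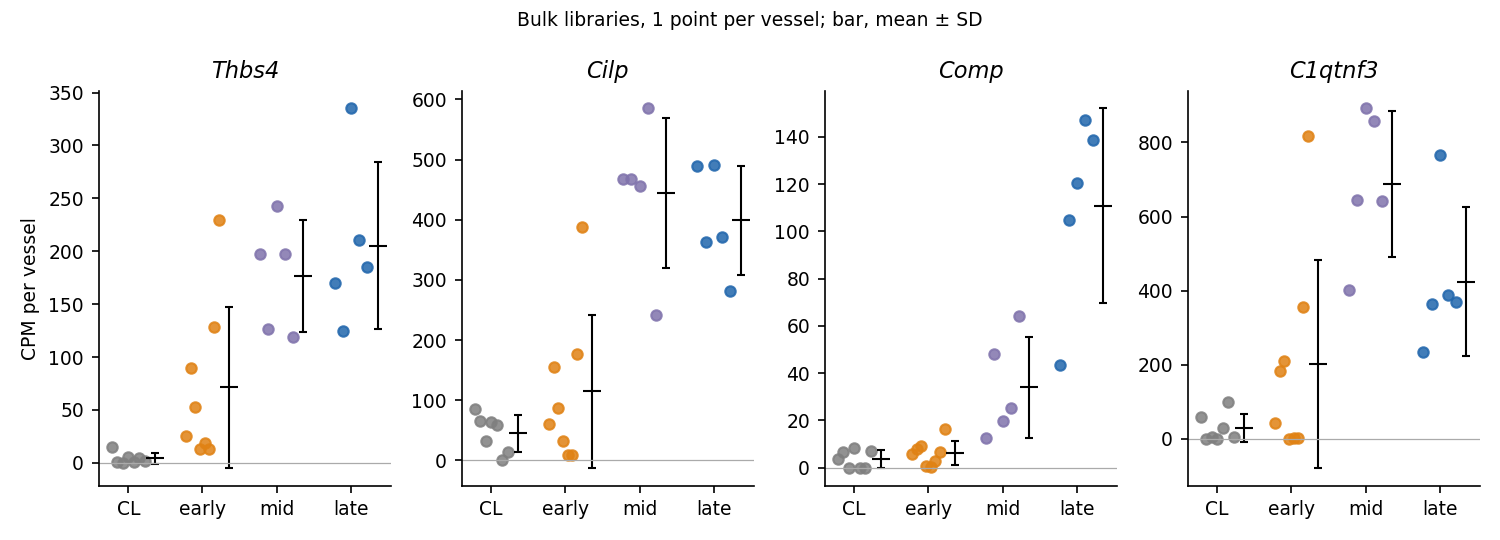
*Thbs4*, *Cilp*, *Comp*, and *C1qtnf3* in bulk libraries, in CPM on a linear axis that differs between panels, with 1 point per vessel and the mean ± SD beside each group (7 contralateral veins, 8 early, 5 mid, and 5 late AVFs). All mid and late AVFs lie above all contralateral veins in each panel, and every late AVF has more *Comp* than any early AVF.

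Between late and mid AVFs edgeR called 0 of the 12673 genes (0% higher, 0% lower), while 39 had an unadjusted *p* under 0.05 and DESeq2 called 1, and the late to mid log2 fold changes of the markers were 0.22 for *Thbs4*, -0.15 for *Cilp*, 1.71 for *Comp*, and -0.70 for *C1qtnf3*. The 4 markers summed to 0.150 to 0.989% of the CPM of 8 fibroblast genes in contralateral veins (median 0.505%), 1.60 to 22.4% in early AVFs (5.51%), 13.7 to 20.4% in mid AVFs (16.5%), and 6.95 to 16.7% in late AVFs (12.2%). The summed fibroblast genes moved too, with medians of 18590, 3683, 7901, and 10258 CPM in these groups, while the summed markers had medians of 77.8, 248, 1288, and 974 CPM. Summed cartilage genes were 0.250 to 32.2 CPM in contralateral veins, with *Col2a1* and *Acan* at 0 in all 7, 30.9 to 66.6 in early, 40.8 to 116 in mid, and 52.0 to 134 CPM in late AVFs. Summed tendon genes were 19.4 to 374, 114 to 333, 246 to 492, and 352 to 1012 CPM in the same order. From mid to late AVFs the medians of both lists were higher (60.3 and 86.1 CPM, 421 and 722 CPM), while that of the 4 markers was lower (1288 and 974 CPM). The summed skeletal muscle list ran from 0.210 to 30.9 CPM among contralateral veins, 565 to 5807 CPM among mid AVFs, and 5.78 to 7784 CPM among late AVFs, and late AVFs 17 and 24, with 5.78 and 30.2 CPM of them, had marker sums of 958 and 974 CPM. The part of tendon and cartilage RNA in the marker values was not tested.

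The 25 leading genes of late members were also followed in bulk. Against contralateral veins 7 were called higher in late AVFs (*Col8a1*, *Col11a1*, *Tnmd*, *Tnc*, *Col12a1*, *Mgp*, *Ltbp2*) and 0 lower, 22 had a fold change above 0, and 12 had every late AVF above every contralateral vein. Their median log2 fold change was 1.87, beside -0.09 over all genes. Against early AVFs, where 0.726% of genes were higher, 1 was called (*Cpxm2*), 19 were above 0, and 7 did not overlap with early AVFs (7.16% of all genes did so). The 15 genes low in members gave 1 higher (*Cxcl5*) and 2 lower (*Ccl11*, *Vit*) against contralateral veins, with a median of -0.35.

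*Col8a1* was 0 to 29.5 CPM in contralateral veins (median 0.394), 38.5 to 358 CPM in early AVFs (median 131), and 470.3, 628, 757, 597, and 572 CPM in late AVFs 16, 17, 19, 23, and 24, with no overlap between the 3 groups and an LFC of 6.55 ± 1.08 (SE) against contralateral veins (adjusted *p* = 0.000191). *Ltbp2* was 0 to 36.6 CPM in contralateral veins (median 9.41), 31.0 to 195 CPM in early AVFs (median 93.0), and 311, 467, 415, 350, and 399 CPM in the late AVFs, an LFC of 5.00 ± 0.83 (adjusted *p* = 0.000214). *Col11a1*, at 0 to 1.59 CPM in contralateral veins, reached 14.6 to 43.5 CPM in late AVFs (LFC 6.33 ± 1.20, adjusted *p* = 0.000824). *Tnmd* was at 0 in 5 of 7 contralateral veins and at 110 and 91.0 CPM in late AVFs 19 and 24, against 8.99 to 16.0 CPM in the other 3.

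Several of these calls were lost when single vessels were left out. For *Col12a1* the LFC stayed at 3.18 to 4.27 while the adjusted *p* crossed the threshold. With each vessel left out in turn, *Col12a1* (LFC 3.41, adjusted *p* = 0.00884) was lost in 17 of 25 fits, with an adjusted *p* of at most 0.0233: these left out any mid or late AVF, an early AVF (1, 2, 4, and 10), or a contralateral vein (35, 632, and 633). *Tnc* was lost in 8 fits (at most 0.0226; contralateral veins 34, 35, 632, and 633, mid AVF 13, late AVFs 16, 17, and 19). *Tnmd* was lost in 8 (at most 0.0187; contralateral veins 27, 28, 31, 34, 35, and 632, late AVFs 19 and 24), and its LFC of 7.22 was 11.35 without contralateral vein 633. *Mgp* was lost in 3 (at most 0.0178; contralateral vein 632, late AVFs 23 and 24), and so was *Vit* (at most 0.0163; late AVFs 17, 23, and 24).

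Other leading genes were not called higher in late AVFs than in contralateral veins. *Angptl1*, with the largest ratio in cells, was 9.24 to 106 CPM in contralateral veins (median 23.3) and 143, 118, 150, 149, and 74.3 CPM in the late AVFs, so that the groups overlapped (LFC 1.75 ± 0.80 SE, adjusted *p* = 0.171). *Aspn* was 372 to 1058 CPM in contralateral veins (median 654) and 832, 674, 865, 648, and 526 CPM in late AVFs (LFC -0.02 ± 0.60, adjusted *p* = 0.991, and 0.022 with DESeq2's size factors). *Cpxm2* was 180 to 947 CPM in contralateral veins (median 474), 0.921 to 62.4 CPM in early AVFs (median 9.91), and 152, 243, 177, 160, and 189 CPM in late AVFs. It fell by 4.95 on the log2 scale in early AVFs (± 0.59 SE, adjusted *p* = 6.04e-07) and was 3.57 higher in late than in early AVFs (± 0.57 SE, adjusted *p* = 0.00101). *Fmod* was 0.453 to 198 CPM in contralateral veins (median 55.7), 0 to 215 CPM in early AVFs (median 21.8), and 222, 549, 501, 357, and 677 CPM in late AVFs, above both, with no call (LFC 2.56, adjusted *p* = 0.174, against contralateral veins).

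The reduced genes of members were at other levels in whole late vessels. *Ccl11*, an eosinophil chemokine, was 197 to 856 CPM in contralateral veins (median 290.2), 13.0 to 69.5 CPM in early AVFs (median 50.6), and 121, 132, 99.2, 79.4, and 72.4 CPM in the late AVFs, an LFC of -1.98 ± 0.39 (SE) against contralateral veins (adjusted *p* = 0.00108). *Cxcl5*, a neutrophil chemokine, was at 0 in 5 contralateral veins and at most 4.03 CPM, 53.4 to 549 CPM in early AVFs (median 199), and 31.5 to 99.6 CPM in late AVFs, an LFC of 6.54 ± 1.11 against contralateral veins (adjusted *p* = 0.000268) and of 12.35 without contralateral vein 27, the one with 4.03 CPM. *Saa3* had an LFC of -0.16 against contralateral veins and of 5.11 (adjusted *p* = 0.000915) without contralateral vein 35, which held 302 CPM against at most 4.35 in the others.

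**Figure D4:**
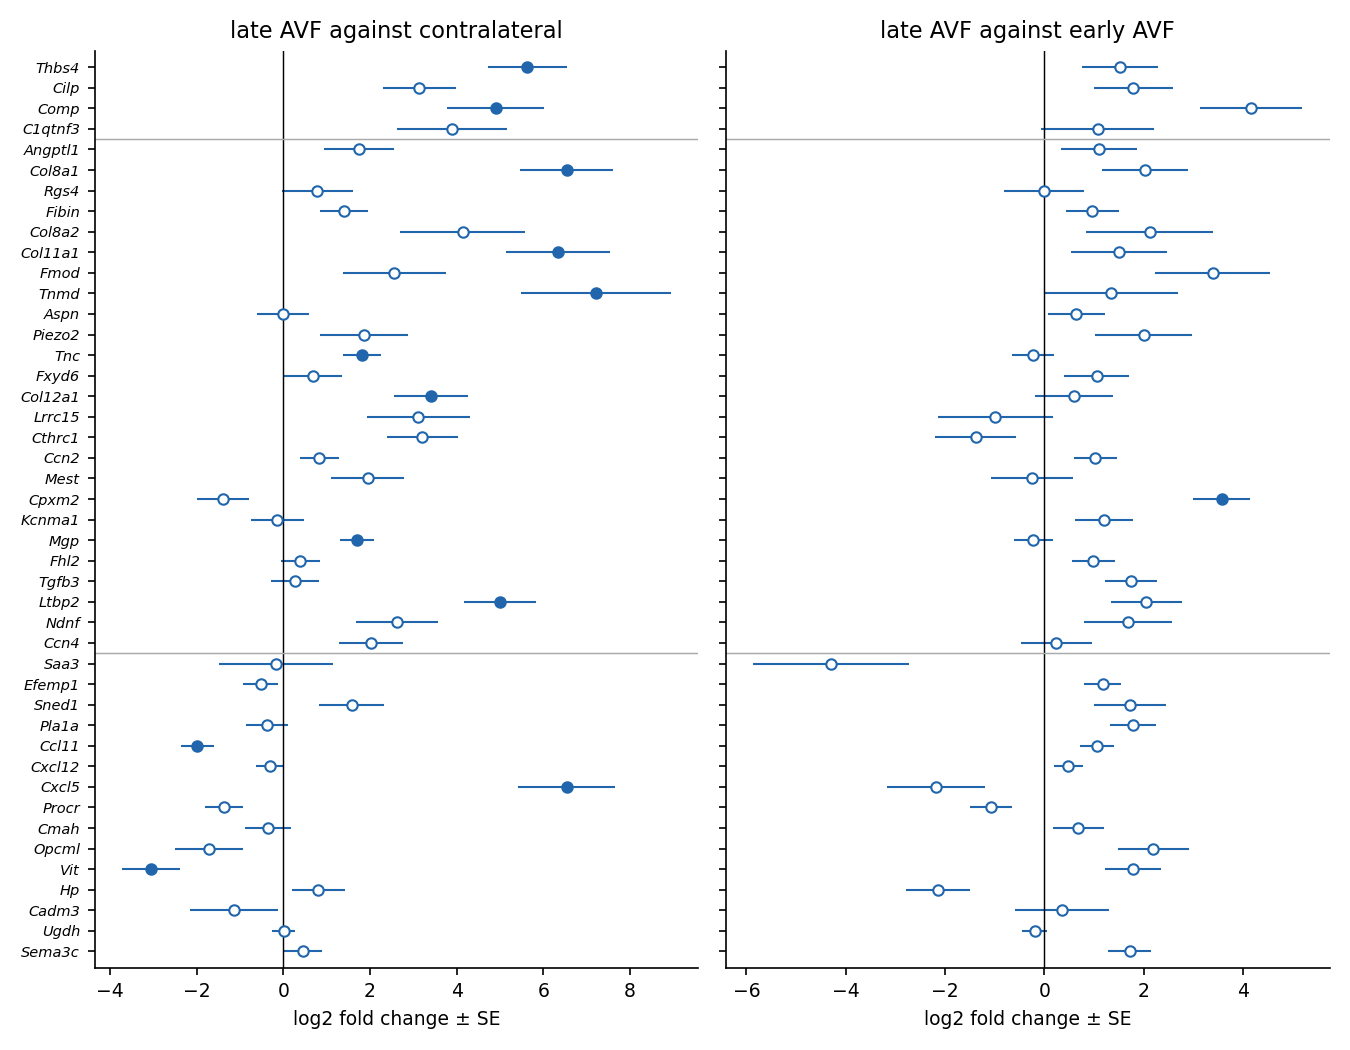
Log2 fold changes ± SE of the 4 markers (top), the 25 genes higher in late members (middle), and the 15 genes lower in them (bottom), in bulk late AVFs against contralateral veins (left) and against early AVFs (right). Filled points are genes called by edgeR's quasi-likelihood test. On the left 2 markers, 7 genes of the middle group, and 3 of the bottom group are filled, and on the right only *Cpxm2* is.

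Gene lists gave the wider course in bulk. Lists of other cell types differed in the same comparison of late AVFs with contralateral veins: 4 of 8 endothelial genes (median log2 fold change -1.52), 5 of 5 erythroid genes (-3.30), and 2 of 8 smooth muscle and pericyte genes (-0.59) were called lower, and 5 of 5 skeletal muscle genes (7.996) and 2 of 5 neutrophil genes (1.69) higher. Of the genes tested, 2 of 5 cartilage and bone genes (*Acan*, *Col2a1*, median 2.74) and 1 of 6 tendon genes (*Tnmd*, median 1.92) were also called higher. So was 1 of 3 T cell genes (median 0.01), while 1 of 5 adipocyte genes (*Fabp4*, median -2.72) was called lower. The part of all these cell types in the values that follow was not tested. Of 9 network and microfibril collagens 4 were called higher in late AVFs than in contralateral veins (*Col4a1*, *Col4a2*, *Col8a1*, *Col18a1*) with a median log2 fold change of 2.30, of 7 fibrillar and fibril-associated collagens 3 (*Col5a2*, *Col11a1*, *Col12a1*; median 1.51), and of 13 elastic fiber genes 3 (*Eln*, *Fbln2*, *Ltbp2*; median 1.07). Of 8 small leucine-rich proteoglycans tested, 2 were called higher against contralateral veins (*Prelp*, *Bgn*; median 0.06), 3 against early AVFs (*Prelp*, *Lum*, *Podn*; median 2.19), and 4 were called lower in early AVFs when set against contralateral veins, where 6.45% of genes were (*Lum*, *Ogn*, *Omd*, *Podn*). In that comparison 4 of 8 fibroblast genes were called lower (median log2 fold change -1.55), and 5 of 8 macrophage genes (median 1.96) and 5 of 5 neutrophil genes (median 5.86) were called higher, beside 6.17% of genes, and their part in the lower proteoglycan values was not tested. Of 9 activated fibroblast genes 3 were called higher in late AVFs than in contralateral veins (*Postn*, *Tnc*, *Fn1*), 7 were called higher in early AVFs than in contralateral veins (*Postn*, *Tnc*, *Cthrc1*, *Runx1*, *Ddah1*, *Fn1*, *Vcan*), and 0 were called between late and early AVFs, where 0.726% of genes were higher and 2.28% lower. The log2 fold change of *Cthrc1* between late and early AVFs was -1.38 ± 0.82 (SE, adjusted *p* = 0.489), and the median of the 9 genes was -0.23. Among 12 genes most raised in *Comp*-led members, taken after their values were seen, 4 were called higher in late AVFs than in contralateral veins (*Frzb*, *Tnfrsf11b*, *Serpine2*, *Col18a1*) and 1 lower (*Cpe*). Over all genes 2.49% were called higher and 2.85% lower. *Serpine2* and *Col18a1* had ratios of only 1.25 and 1.21 in *Comp*-led members without the cells with cartilage genes or over 500 CPM of *Rgs5*. *Frzb* was at 0 in 5 of 7 contralateral veins and at most 0.0876 CPM, 9.59 to 77.5 CPM in early AVFs, and 62.8, 82.3, 29.2, 89.5, and 109 CPM in the late AVFs.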

How the data were processed

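Single-cell libraries were made with the 10x Chromium 3′ kit, and the authors deposited UMI counts for each gene in each barcode, made with Cell Ranger 6.0.2 per the file headers, for 32285 genes. Bulk poly(A) libraries were made from single vessels, and the authors deposited raw read counts for 56980 genes. The submitters' processing notes name STAR, Cell Ranger, and GRCm38 (mm10). The tool that counted bulk reads is not given in the sources used here. No deposited column of a sample was left unused.

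The members, gene lists, and tests were chosen with earlier results of these data known. Barcodes were filtered as in the study's methods and gated as given above (Python 3.11.15, numpy 2.4.6, scipy 1.17.1, pandas 2.3.3, scanpy 1.11.5 for Scrublet). UMIs were summed over members or other gated fibroblasts of a library and divided by their total (CPM). Ratios had 10 CPM added to both levels. Genes needed 50 CPM and a UMI in 10% of cells on the higher side. No such minimum was set for leading genes followed in other libraries or for lists compared between late and early members. Macrophages were barcodes with at least 2% of UMIs from the 3 macrophage genes and under 0.5% from the collagen genes. Shares carry exact binomial (Clopper–Pearson) and sums exact Poisson intervals. Named genes were the 4 markers, the 25 genes with the highest and the 15 with the lowest ratio in late members, up to 6 members of each fixed list by their level in late members or their bulk change, the list members past 2-fold or called, and defining markers of cell types, and any other is said to have been chosen after its values were seen.

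Bulk counts were fitted for all 25 libraries (14 female, 11 male; 20254173 to 67457501 counts, median 27994164) with edgeR 4.0.16 in R 4.3.3: TMM scaling, 1 mean per group, quasi-likelihood test, Benjamini–Hochberg adjustment over 12673 genes, those whose DESeq2-normalized counts averaged 100 or more, as in the study's methods. The common dispersion between vessels was 0.710. Vessels of a group came from separate libraries, and p-values measure the spread between these. Alternatives were DESeq2 1.42.0, its size factors, edgeR's likelihood ratio test, filterByExpr, no filter on low counts, a term for sex, each vessel left out, and other gates and thresholds for the cells. Scripts were tested on simulated data. Promoters were read from a RefSeq table and gene positions from GENCODE M21.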

Additional observations from a re-analysis of the deposited data

Results flagged for a closer look

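Of 176 groups of bulk vessels examined for the 4 markers and the 40 leading genes, 28 had 1 vessel far from the others. The rule used the gap to the next vessel. For normally distributed levels, chance would meet it in about 1 in 20 groups, or about 9 here. It was applied to CPM without a log scale, and in all 28 groups the vessel that stood out was the highest. Whether 28 is more than chance gives was therefore not tested. Of the 28 groups, 14 were among contralateral veins, 11 among early, 1 among mid, and 2 among late AVFs. In early AVF 10, 7 genes were highest together: *Cilp* at 388 CPM (next vessel 178), *C1qtnf3* at 817 (356), *Col8a1* at 358 (187), *Fmod* at 215 (51.5), *Piezo2* at 35.2 (14.2), *Cpxm2* at 62.4 (16.9), and *Sema3c* at 101 (46.9). In early AVF 7, *Rgs4* was at 597 CPM (next 46.4) and *Fxyd6* at 217 (57.3), in early AVF 1 *Tnmd* was at 122 CPM (14.2), and in early AVF 3 *Hp* was at 6467 CPM (2519). Late AVF 17 stood out in *Saa3* at 134 CPM (next 23.7) and *Hp* at 1231 (355), and mid AVF 9 in *Cxcl12* at 717 CPM (586).

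Among contralateral veins, vein 633 stood out in *Col8a2* at 14.0 CPM (next 0.491), *Col11a1* at 1.59 (0.562), and *Tnmd* at 2.07 (0.0791), vein 28 in *Angptl1* at 106 CPM (46.0), *Tnc* at 214 (104), and *Tgfb3* at 546 (245), and vein 27 in *Thbs4* at 14.6 CPM (5.80) and *Cxcl5* at 4.03 (0.0453). Vein 34 stood out in *Mest* at 91.4 CPM (28.9), *Pla1a* at 132 (64.7), and *Cmah* at 212 (96.3), vein 31 in *Ndnf* at 23.6 CPM (7.91), and vein 35 in *Saa3* at 302 CPM (4.35) and *Hp* at 748 (314).

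Some barcodes outside the fibroblast gate also reached the marker share, which 1 marker UMI can meet in a shallow barcode. Their marker UMIs were not examined. The median depth of all barcodes kept was 2751 UMIs in contralateral veins, 8951 in early AVFs, and 15425 in late AVFs. Among barcodes under the collagen threshold, at least 0.1% of UMIs came from the 4 markers in 21 of 4046 (0.519%) in early AVFs and 40 of 3682 (1.09%) in late AVFs, against 14 of 4617 (0.303%) in contralateral veins.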

How the results depend on the processing

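No paired analysis was possible because the vessel numbers in the labels were not shared between groups. The share of members in contralateral, early, and late libraries was 2.53%, 17.3%, and 23.9% at a marker share of 0.05%, 0.354%, 5.46%, and 11.3% at 0.2%, 0.295%, 8.83%, and 14.8% with at least 2 markers, and 0.530%, 8.35%, and 11.7% without *Cilp*. The early share was 7.87% without *C1qtnf3* and 16.7% in cells thinned to 2000 UMIs. The late share was 13.1% without *Comp*, 20.6% in thinned cells, 19.2% with every deposited barcode, and 19.1% at a collagen share of 3%. With 50 CPM added, 36 genes in place of 63 were higher in late members. In cells thinned to 2000 UMIs the ratio of a marker in cells chosen by the other 3 was 39.3 for *Thbs4*, 8.81 for *Cilp*, 2.10 for *Comp*, and 12.0 for *C1qtnf3* in late AVFs, and 5.87 for *Cilp* and 2.74 for *Comp* in early AVFs. Alternatives added after seeing the data were those on members with genes of other tissues and on 2 of 4 markers for the gene count.

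Counts of called bulk genes changed most. Late AVFs against contralateral veins gave 676 genes, and 1304 at an adjusted *p* under 0.05, 1293 with DESeq2, 1044 with the likelihood ratio test, 2696 with filterByExpr, 2567 without a filter, and 432 to 889 with single vessels left out. Late against early AVFs gave 381, and 795, 753, and 625 with the first 3, 208 without a filter, and 32 to 549 with single vessels left out. Late against mid AVFs gave 0 with edgeR and 1 with DESeq2. Mid AVFs against contralateral veins gave 767, and 1421, 1418, 1158, 2823, and 2728 in the order above. Early AVFs gave 1599, and 2520 and 2440 with the first 2, 3803 with filterByExpr, and 3938 without a filter. The cause of these changes was not tested.

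Some fold changes near 0 changed sign. *Aspn* in late AVFs against contralateral veins was 0.022 with DESeq2's size factors and 0.023 with a term for sex, and *Kcnma1* 0.051 with a term for sex. *Rgs4* in late against early AVFs was 0.013 with DESeq2, 0.052 with its size factors, 0.057 with filterByExpr, 0.040 without a filter, and 0.12 with a term for sex. With single vessels left out, the range against contralateral veins was -0.15 to 0.15 for *Aspn*, -0.58 to 0.19 for *Cmah*, -0.41 to 0.24 for *Kcnma1*, -0.56 to 0.053 for *Pla1a*, -1.48 to 5.11 for *Saa3*, and -0.17 to 0.25 for *Ugdh*. It was -0.36 to 0.15 for *Mgp* and -0.29 to 1.76 for *Rgs4* against early AVFs, and -0.032 to 0.36 for *Thbs4* against mid AVFs. The interaction of sex with the difference of late AVFs from contralateral veins was fitted with edgeR's quasi-likelihood test and adjusted over all genes. Its smallest adjusted *p* among the 44 genes was 0.673, for *Cxcl5*, with an estimate of 7.12 on the log2 scale. The male vessels of these groups were contralateral veins 632 and 633 and late AVFs 23 and 24, so even large differences could be missed.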
